A study of Mus musculus with 16 samples.

Results

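The genes described here store, take up, release or sense iron. They are 9 of the 24411 genes of the deposited count table, taken by their symbols: the ferritin heavy and light chains Fth1 and Ftl1, the haem-degrading enzyme Hmox1, the importers Tfrc, Slc11a1 and Slc11a2, the exporter Slc40a1 (ferroportin), the ferroxidase Cp (ceruloplasmin) and the iron sensor Ireb2. Each symbol matched 1 row. They were followed in brain macrophages of 8 bone marrow chimeras, which are mice whose blood-forming system was replaced after irradiation. Recipients were wild-type C57BL/6J mice, irradiated at 6 weeks of age with 950 cGy and given congenic wild-type bone marrow that carried the CD45.1 allele. From each brain, graft-derived cells (engrafted cells, Ly6C/G-, CD11b+, CD45.1 low) and irradiated resident cells (host microglia, Ly6C/G-, CD11b+, CD45.2 low) were sorted and sequenced as separate libraries. Mice 1 to 4 had received the bacterial endotoxin lipopolysaccharide (LPS, 2.5 mg/kg) 12 h before, while mice 5 to 8 were not injected, so that each of the 4 groups holds 4 libraries. Transplantation preceded sorting by 9 months in the published description of the RNA libraries, whereas the sample labels name 3.5 or 9 months and assign neither to a library. Every mouse had been irradiated, and no library of an unirradiated brain was analysed here.

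Macrophages take up iron bound to transferrin through the transferrin receptor, move it out of endosomes by metal transporters of the Slc11 family, free it from haem with haem oxygenase, store it in ferritin shells built of heavy and light chains, and release it through ferroportin, beside which a ferroxidase such as ceruloplasmin oxidises the exported ion. When iron is scarce, iron regulatory proteins, of which Ireb2 encodes one, bind a short RNA hairpin called the iron responsive element. In the 5′ untranslated region the bound hairpin holds back translation, as in ferritin and ferroportin messages, and in the 3′ untranslated region it protects the transferrin receptor message from decay. In inflammation, macrophages are known to hold iron back by storing more and exporting less.

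The hairpin could be read from the GENCODE vM1 transcripts of the mouse build mm9. They are shown because part of the control of these genes acts on the message and not only on its amount. The search asked for a bulged C, 5 bases, the loop CAGTG followed by A, C or T, and 5 bases that pair with the first 5, with G-T pairs allowed. It matched 4 of the 9 genes, against 205 of 22754 protein-coding genes (0.901%). In each line the capitals mark the 6 bases of the loop.
Fth1, 5′ untranslated region, chr19:10057228-10057244, plus strand: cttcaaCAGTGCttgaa
Ftl1, 5′ untranslated region, chr7:52715155-52715171, minus strand: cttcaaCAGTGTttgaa
Slc40a1, 5′ untranslated region, chr1:45982316-45982332, minus strand: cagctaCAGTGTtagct
Tfrc, 3′ untranslated region, chr16:32631311-32631327, plus strand: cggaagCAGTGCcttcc
Tfrc, 3′ untranslated region, chr16:32631690-32631706, plus strand: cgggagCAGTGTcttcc
Tfrc, 3′ untranslated region, chr16:32631755-32631771, plus strand: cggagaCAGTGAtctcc
Tfrc, 3′ untranslated region, chr16:32631802-32631818, plus strand: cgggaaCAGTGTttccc
The upstream hairpins of both ferritin chains have the same stem letters and differ in the last base of the loop. Tfrc holds 4 matches, all downstream of its coding region. A match is a description of the letters, and no match in Hmox1, Cp, Slc11a1, Slc11a2 or Ireb2 says only that this pattern was not found in the transcripts read.

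Values are given as CPM, read counts scaled to 1e6 reads a library after correction of the library sizes with TMM (edgeR) over all 16 libraries. Reads on genes ranged from 395283 to 1203597 per library, and where a gene had no read its level could be as high as 3 reads, which is 2.34 to 8.76 CPM and covers counting error only. The shallowest library was that of the engrafted cells of mouse 4. All 8 microglia markers checked (Csf1r and P2ry12 among them) were detected in every group. Their summed level was 12379 to 13356 CPM in engrafted and 16959 to 18973 CPM in host control libraries, and 5012 to 5851 and 7749 to 9839 CPM after LPS. Sall1 was scarce in engrafted cells, with means of 17.6 CPM without and 8.51 CPM with LPS, against 318 and 103 CPM in host microglia. Red blood cell markers reached 6879 CPM in the engrafted library of mouse 4 and 4865 CPM in that of mouse 8, 885 and 758 CPM in the host libraries of the same mice, and 2.56 to 165 CPM in the other 12. Neutrophil markers summed to 47.0 to 1242 CPM in engrafted and to at most 14.7 CPM in host libraries, with Mmp8 at 0 in both host groups. Astrocyte markers summed to 11.7 to 45.0 CPM in engrafted and 151 to 307 CPM in host libraries, a gap that 1 of the 6, Slc1a3, made (group means 9.93 and 11.6 CPM in engrafted, 204 and 175 CPM in host cells), while each of the other 5 had group means of at most 13.3 CPM. Choroid plexus markers, mostly reads of Ttr, summed to 288 to 2256 CPM in engrafted and 92.9 to 919 CPM in host control libraries, and to 417 to 1275 and 512 to 3319 CPM after LPS. Each comparison below was also made without mice 4 and 8, a choice made after seeing the data, and none of the calls on the 9 genes changed. The part of neutrophil, astrocyte and choroid plexus RNA in the differences between groups was not tested. Fewer cells of a type and less RNA per cell cannot be told apart in such bulk samples.

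**Figure D1:**
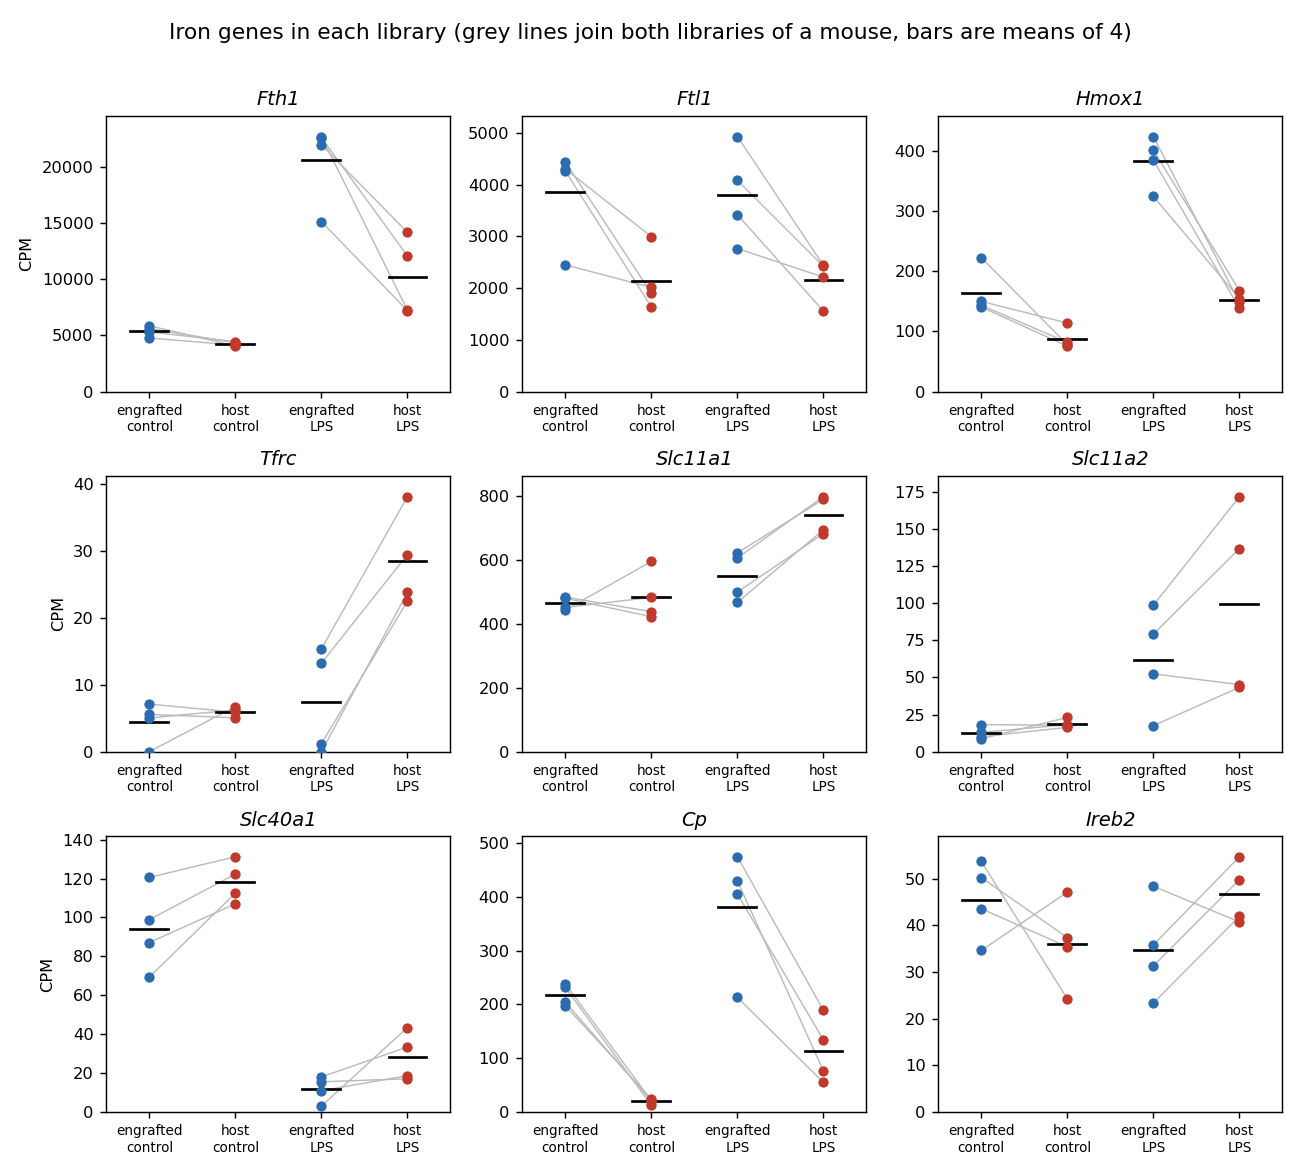
Level of each of the 9 genes (CPM, linear axis from 0) in every library. Points are libraries, blue for engrafted cells and red for host microglia, grey lines join both libraries of a mouse and bars are group means of 4; Slc40a1 libraries after LPS lie below all control libraries, while the ranges of Ftl1 with and without LPS overlap within each population.

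In unchallenged chimeras, the question was whether engrafted cells and host microglia differ in iron handling genes. Both ferritin chains, Hmox1 and Cp were higher in engrafted cells, by 1.28-fold for Fth1, 1.82-fold for Ftl1, 1.93-fold for Hmox1 and 11.4-fold for Cp. Tested with edgeR's quasi-likelihood method and Benjamini-Hochberg adjustment over 8042 genes, 8 of the 9 genes entered the test, 4 were higher, 0 were lower and 4 did not pass, whereas 27.3% of all tested genes passed (13.6% higher and 13.7% lower). Slc40a1, Slc11a1, Slc11a2 and Ireb2 did not pass, and Tfrc had too few reads.

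After LPS, the same 4 genes were higher in engrafted cells, by 2.04-fold for Fth1, 1.77-fold for Ftl1, 2.54-fold for Hmox1 and 3.40-fold for Cp. Tfrc was lower by 1.70 on the log2 scale, and it entered the test only through its reads in host LPS libraries. All 9 genes were tested, 4 were higher, 1 was lower and 4 did not pass, beside 17.1% of the 7843 genes tested (9.52% higher and 7.62% lower).

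LPS itself was tested within each population. In engrafted cells Fth1, Slc11a2, Hmox1 and Cp rose and Slc40a1 fell, which is 4 higher and 1 lower of 8 genes tested, beside 38.7% of 7609 genes (19.4% higher and 19.3% lower). In host microglia 6 of the 9 genes rose, the same 4 and also Tfrc and Slc11a1, and 1 fell, Slc40a1, beside 39.7% of 8238 genes (19.2% higher and 20.5% lower). Tfrc entered that test only through its reads in the LPS libraries. In the test of engrafted cells, Slc11a2 entered only through its LPS libraries and Slc40a1 only through its control libraries. The 2 comparisons with LPS and the 2 between populations use the same 16 libraries and so are not independent of each other. Whether LPS acted differently in both populations was tested by the interaction, which passed for 5.88% of 8847 genes (2.97% higher and 2.9% lower) and for 1 of the 9, Cp. The median log2 fold change of the tested genes was 0.53 in engrafted cells (8 genes, without Tfrc) and 0.79 in host microglia (9 genes) after LPS, against -0.01 and 0.01 over all genes tested. These medians cover different genes and do not compare the populations.

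**Figure D2:**
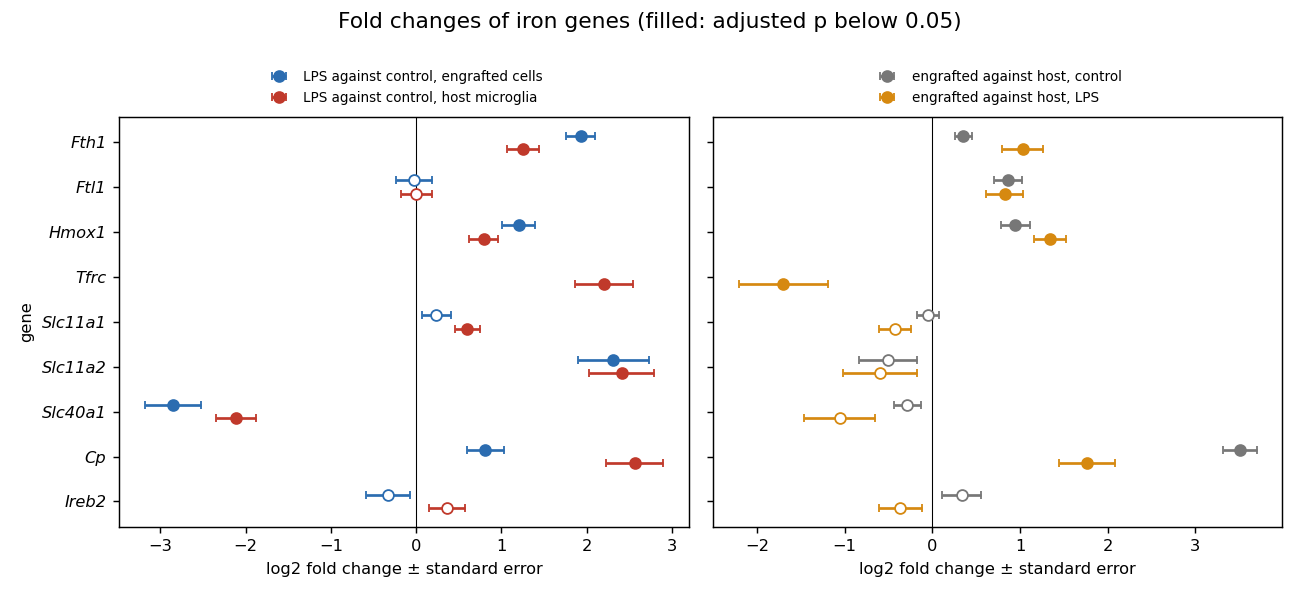
Fitted log2 fold changes (x axis) of the 9 genes (y axis) with standard errors, for LPS against control in each population (left) and engrafted cells against host microglia in each condition (right). Filled points had an adjusted p below 0.05, and no point is drawn for Tfrc where it had too few reads; Slc40a1 lies at -2.85 for engrafted cells and -2.12 for host microglia in the left panel, and Cp at 3.51 without and 1.76 with LPS in the right panel.

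Fth1 (NM_010239, chr19:10057136-10059601) encodes the ferritin heavy chain, which carries the ferroxidase activity that loads iron into the shell. Its level in unchallenged engrafted cells was 4758, 5846, 5293 and 5589.7 CPM in mice 5 to 8. Host microglia of the same mice had 4129.96, 4049, 4435 and 4338 CPM. The groups lay close together but did not overlap, as was the case for 26.4% of all genes tested, and the log2 difference was 0.35 (SE 0.096, edgeR adjusted p = 0.00673).

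After LPS, engrafted cells held 22568, 21941, 15107 and 22668 CPM of Fth1 in mice 1 to 4, and host microglia 12053, 14146, 7185 and 7232 CPM. Every LPS library lay above every control library of its population. Mice 1 and 2 had the higher host values, and mouse 3 had the lowest value in both populations. LPS raised Fth1 by 1.93 on the log2 scale (SE 0.17, edgeR adjusted p = 4.62e-08) in engrafted cells, a 3.82-fold rise, and by 1.25 (SE 0.19, adjusted p = 1.50e-05), 2.38-fold, in host microglia. Between populations after LPS the log2 difference was 1.03 (SE 0.23, edgeR adjusted p = 0.00418), and the 4 libraries of each did not overlap, as for 20.7% of all genes tested. The difference between both LPS effects, 0.67 (SE 0.26), had an edgeR adjusted p of 0.127. It passed when the mouse was added as a replicate block (0.72, adjusted p = 0.0341), a fit that takes both libraries of a mouse as a pair. It also passed without the host library of mouse 2 (0.88, adjusted p = 0.0234). Without mice 4 and 8 it did not pass (0.54, edgeR adjusted p = 0.349), and leaving out 1 library gave 0.56 to 0.88. A different Fth1 response of both populations was thus not shown by the main fit. The order of the 4 groups was engrafted LPS, host LPS, engrafted control and host control. The call between populations without LPS was lost without the engrafted library of mouse 8 (0.33, edgeR adjusted p = 0.0549) and with all 16 libraries in the fit (0.35, adjusted p = 0.192), at nearly the same log2 difference.

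Ftl1 (NM_010240, chr7:52713314-52715256) encodes the light chain, which helps the iron core to form. Unchallenged engrafted cells had 2450.1, 4439.95, 4266 and 4305 CPM in mice 5 to 8, against 2013, 1898, 1638 and 2995 CPM in host microglia. The groups overlapped through the engrafted library of mouse 5 and the host library of mouse 8. The log2 difference was 0.87 (SE 0.16, edgeR adjusted p = 0.000195).

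With LPS, Ftl1 stood at 4084, 3419, 2766 and 4932 CPM in engrafted cells of mice 1 to 4 and at 2420.3, 1556, 2212 and 2439 CPM in host microglia. The libraries of the populations did not overlap there, and the log2 difference was 0.83 (SE 0.21, edgeR adjusted p = 0.0112). Unlike Fth1, the light chain did not pass the test for LPS in either population, with log2 changes of -0.03 (SE 0.21, edgeR adjusted p = 0.933) in engrafted cells and 0.00 (SE 0.18, adjusted p = 0.991) in host microglia. Its group means were thus ordered by population, with both engrafted means, which did not differ beyond their spread, above both host means, which did not either. Mouse genomes hold near-identical processed copies of both ferritin genes, and because only uniquely mapped reads were counted, reads shared with such copies may be missing from either chain.

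The share of heavy chain reads moved with LPS. Divided by the lengths of the counted transcript models (936 and 964 bases), Fth1 had 2.00, 1.36, 1.28 and 1.34 reads per base for each read per base of Ftl1 in engrafted cells of mice 5 to 8, and 2.11, 2.20, 2.79 and 1.49 in host microglia. After LPS the ratio was 5.69, 6.61, 5.63 and 4.73 in engrafted cells of mice 1 to 4 and 5.13, 9.37, 3.34 and 3.05 in host microglia. All 8 LPS libraries lay above all 8 control libraries. The libraries read the 3′ end of messages, so the division by length sets the absolute ratio but not its change. Together both chains took 0.751 to 1.00% of the reads on genes in engrafted and 0.617 to 0.747% in host control libraries, and 1.80 to 2.52% and 1.00 to 1.57% after LPS.

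**Figure D3:**
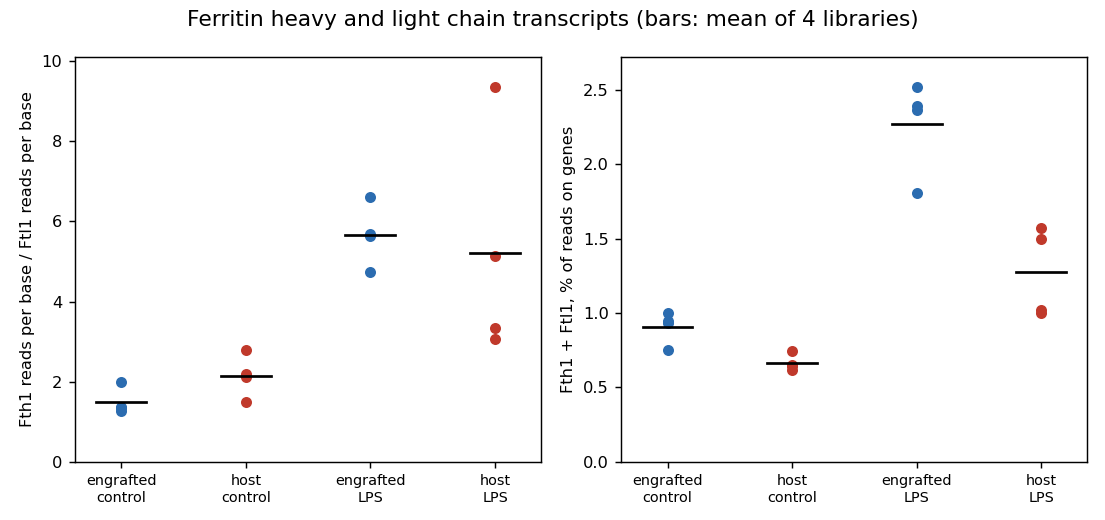
Ratio of Fth1 to Ftl1 reads per base (left) and both ferritin chains as a percentage of the reads on genes (right), 1 point for each library and bars for means of 4, with linear axes from 0. The ratio was 1.28 to 2.79 in the control libraries and 3.05 to 9.37 in the LPS libraries, with the highest value in the host library of mouse 2.

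Hmox1 (NM_010442, chr8:77617517-77624492) encodes the inducible haem oxygenase, which opens the haem ring and frees its iron. Unchallenged engrafted cells had 223, 144, 141 and 150.1 CPM in mice 5 to 8, and host microglia had 78.2, 81.8, 75.6 and 114 CPM. No engrafted library fell within the host range. The log2 difference was 0.95 (SE 0.17, edgeR adjusted p = 8.16e-05).

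After LPS it reached 425, 402, 325 and 385 CPM in engrafted cells of mice 1 to 4, and 148, 168, 155 and 138 CPM in host microglia. Host microglia after LPS thus overlapped with the level of unchallenged engrafted cells, and engrafted LPS libraries lay above all others. The rise with LPS was 1.21 (SE 0.19, edgeR adjusted p = 5.92e-05) on the log2 scale in engrafted cells and 0.79 (SE 0.17, adjusted p = 0.000578) in host microglia, and it did not overlap with control libraries in either population, as for 35.1% and 35.7% of all genes tested. The LPS effects differed by 0.40 (SE 0.26, edgeR adjusted p = 0.416). Hmox1 was higher in engrafted cells by 1.34 (SE 0.18, edgeR adjusted p = 3.26e-05) after LPS. Of the libraries with many red blood cell reads, both of mouse 4 and both of mouse 8, the host library of mouse 8 had the highest Hmox1 of its group and that of mouse 4 the lowest, while both engrafted ones lay within the range of the others. The part of red blood cell RNA was not tested beyond leaving out these mice.

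Tfrc (NM_011638, chr16:32608982-32632880), the transferrin receptor, brings transferrin-bound iron into the cell. It was scarce in unchallenged mice, with 7.10, 0, 5.03 and 5.56 CPM in engrafted cells and 5.90, 6.74, 6.23 and 5.05 CPM in host microglia of mice 5 to 8. These are at most 8 reads in a library, and no difference was detectable at this depth (two-sided exact permutation test, p = 0.4). Host microglia of mice 1 to 4 had 29.4, 22.5, 38.1 and 23.8 CPM, from 17 to 32 reads.

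All 4 host LPS libraries lay above every other library, and the rise in host microglia was 2.21 on the log2 scale (SE 0.34, edgeR adjusted p = 7.14e-06), 4.61-fold. In engrafted cells after LPS the level was 13.2, 1.20, 15.4 and 0 CPM, where the 0 in mouse 4 allows up to 8.76 CPM. Against unchallenged engrafted cells the exact permutation test gave p = 1. At so few reads that test cannot show the absence of a rise. Tfrc cleared the low-count limits only where host LPS libraries entered, so its entry depended on the values compared. After LPS it was lower in engrafted cells than in host microglia, by 1.70 on the log2 scale (SE 0.51, edgeR adjusted p = 0.019), a 3.25-fold difference with no overlap. That call was lost without the engrafted library of mouse 2 (edgeR adjusted p = 0.066) and without the host library of mouse 3 (adjusted p = 0.0627). The interaction, -1.39 (SE 0.83), did not pass (edgeR adjusted p = 0.383), so a different response of both populations was not shown.

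Slc11a1 (NM_013612, chr1:74421777-74432625), also called Nramp1, exports metal ions from the phagosome, and C57BL/6 mice are known to carry a non-functional allele of it. Engrafted control cells ranged from 443 to 483 CPM and host control microglia from 422 to 595 CPM, with a log2 difference of -0.05 (SE 0.13, edgeR adjusted p = 0.821). Host microglia rose with LPS to 789, 797, 682 and 694 CPM in mice 1 to 4, above all their controls, by 0.60 on the log2 scale (SE 0.15, edgeR adjusted p = 0.00239). Engrafted cells had 622, 606, 499 and 467 CPM in the same mice, and their change of 0.24 (SE 0.17, edgeR adjusted p = 0.286) did not pass. In both populations mice 1 and 2 had the higher values. The populations did not overlap after LPS, yet their log2 difference of -0.42 (SE 0.18) had an edgeR adjusted p of 0.137, and the interaction of -0.37 (SE 0.22) did not pass either (adjusted p = 0.374).

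Slc11a2 (NM_001146161, chr15:100223089-100253486), known as DMT1, carries ferrous iron across the endosomal membrane into the cytosol. Unchallenged cells had 8.66 to 18.2 CPM in the engrafted and 16.4 to 23.1 CPM in the host population, and the log2 difference of -0.51 (SE 0.33) did not pass (edgeR adjusted p = 0.281). After LPS, engrafted cells had 79.2, 98.7, 52.5 and 17.5 CPM in mice 1 to 4, and host microglia 137, 172, 45.2 and 43.4 CPM. In both populations mice 1 and 2 lay highest, and the engrafted library of mouse 4, with 6 reads, lay inside the control range.

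On the log2 scale, Slc11a2 rose by 2.31 in engrafted cells (SE 0.42, edgeR adjusted p = 8.67e-05) and by 2.41 in host microglia (SE 0.38, adjusted p = 1.71e-05), 4.97-fold and 5.32-fold. In engrafted cells, where control libraries held 5 to 18 reads, it cleared the low-count limits only through its LPS libraries. The spread within LPS groups was wide, with an SD of 35.2 CPM around a mean of 62.0 CPM in engrafted and 65.2 around 99.4 CPM in host libraries (n = 4 each). Populations after LPS differed by -0.60 (SE 0.42, edgeR adjusted p = 0.382), and the LPS effects by -0.09 (SE 0.65, adjusted p = 0.964). The table counts 1 transcript model for a gene, and messages of Slc11a2 with other 3′ ends may not have been counted.

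Slc40a1 (NM_016917, chr1:45964915-45982439) encodes ferroportin, the iron exporter of macrophages. Engrafted cells of mice 5 to 8 had 121, 69.3, 98.9 and 87.1 CPM, and host microglia 131, 113, 122 and 107 CPM. The host library was the higher one in each of the 4 mice, but the log2 difference of -0.29 (SE 0.16) did not pass (edgeR adjusted p = 0.189), and it passed only when the engrafted library of mouse 5 was left out (-0.45, adjusted p = 0.041).

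After LPS the level was 15.4, 10.8, 17.9 and 2.92 CPM in engrafted cells of mice 1 to 4 and 17.0, 18.6, 33.3 and 43.4 CPM in host microglia. Every LPS library lay below every control library. Slc40a1 fell by 2.85 on the log2 scale in engrafted cells (SE 0.33, edgeR adjusted p = 3.01e-07), 7.23-fold, and fell by 2.12 in host microglia (SE 0.24, adjusted p = 2.13e-07), 4.34-fold. The engrafted library of mouse 4 rests on 1 read, and without mice 4 and 8 the decrease in engrafted cells was -2.73 (edgeR adjusted p = 8.07e-08). With all mice, Slc40a1 entered the test of engrafted cells only through its control libraries. Between populations after LPS the log2 difference was -1.06 (SE 0.41, edgeR adjusted p = 0.0786), which became -0.61 without mice 4 and 8. With scaling by library totals (-1.20, adjusted p = 0.049), with all 16 libraries in the edgeR fit (-1.05, adjusted p = 0.0255) and with no filter on low counts (-1.05, adjusted p = 0.0224), it passed. The LPS effects differed by -0.75 (SE 0.41, edgeR adjusted p = 0.316).

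Cp (NM_007752, chr3:19857054-19892998), ceruloplasmin, is a copper-containing ferroxidase that works with ferroportin. It had the largest difference between populations of the 8 genes tested in unchallenged mice. Engrafted cells had 238, 204, 198 and 232 CPM in mice 5 to 8 and host microglia 20.6, 20.2, 23.4 and 12.1 CPM. The log2 difference was 3.51 (SE 0.19, edgeR adjusted p = 1.80e-14). Cp is also made by astrocytes and choroid plexus, whose part in this difference was not tested.

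With LPS, Cp reached 475, 406, 429.85 and 213 CPM in engrafted cells of mice 1 to 4, and 189, 134, 76.2 and 54.5 CPM in host microglia. The engrafted library of mouse 4 lay inside the control range, whereas all host LPS libraries lay above their controls and below every engrafted library. Cp rose by 0.81 on the log2 scale in engrafted cells (SE 0.22, edgeR adjusted p = 0.00552), 1.76-fold, and by 2.56 in host microglia (SE 0.33, adjusted p = 1.39e-06), 5.91-fold. The effects differed by -1.75 (SE 0.42, edgeR adjusted p = 0.00919), so the log2 population difference narrowed to 1.76 (SE 0.32, adjusted p = 0.000695). It narrowed as a ratio only, since mean levels were 218 and 19.1 CPM without LPS and 381 and 113 CPM with it. This interaction stayed past the threshold in every alternative run, with edgeR and DESeq2 adjusted p between 2.17e-06 and 0.034. The order of the groups was engrafted LPS, engrafted control, host LPS and host control.

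Ireb2 (NM_022655, chr9:54711562-54760341) encodes iron regulatory protein 2, which the cell degrades when iron is plentiful, so that its control lies largely in the protein. Group means were 45.6 ± 8.42 CPM in engrafted and 36.0 ± 9.40 CPM in host control libraries, and 34.7 ± 10.5 and 46.8 ± 6.64 CPM after LPS (SD, n = 4 each). Ranges overlapped in all comparisons. Its log2 changes with LPS were -0.33 (SE 0.26, edgeR adjusted p = 0.323) in engrafted cells and 0.36 (SE 0.21, adjusted p = 0.182) in host microglia, and the interaction of -0.70 (SE 0.34) did not pass (adjusted p = 0.243). Between populations it differed by 0.34 (SE 0.22, edgeR adjusted p = 0.298) without and by -0.36 (SE 0.24, adjusted p = 0.355) with LPS.

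Promoter windows from RefSeq (build GRCm38.p6, 250 bases before to 50 after a start) were given for 6 of the 9 genes, and none is printed since the data do not measure binding there. The 6 were Cp, Fth1, Ftl1, Ireb2, Slc11a1 and Tfrc, so the windows of Hmox1, Slc40a1 and Slc11a2 were not searched. The antioxidant response element core TGACNNNGC, sought on both strands, was in 0 of the 6 and in 14.0% of the windows of 27025 genes. With 6 genes, 0 matches cannot be told from that share. The letters CAGTGN were in the windows of Ftl1 and Slc11a1 on the sense strand, and in 37.7% of all genes. They began at -242 in Ftl1 and at -39 in Slc11a1, before the start, so the Ftl1 match is not the hairpin shown above.

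The 9 genes were also set in a wider list of 57 iron genes, grouped by role, of which 54 were in the table. Of its members beyond the 9, 27 were tested for LPS in engrafted cells, where 7 rose and 5 fell (44.4%, beside 38.7% of all genes tested), and 27 in host microglia, where 6 rose and 5 fell (40.7%, beside 39.7%). These shares were near those of all genes. Among uptake genes Slc39a14, which encodes the importer ZIP14, rose in both populations, by 2.74 (SE 0.37, edgeR adjusted p = 2.38e-06) on the log2 scale in engrafted cells and by 3.27 (SE 0.22, adjusted p = 6.73e-11) in host microglia. Lcn2, the siderophore-binding lipocalin 2, rose by 5.69 (SE 0.34, edgeR adjusted p = 9.21e-10) in engrafted cells and by 3.95 (SE 0.52, adjusted p = 5.86e-07) in host microglia. Slc39a14 in engrafted cells and Lcn2 in host microglia cleared the low-count limits only through their LPS libraries. Slc46a1, a haem and folate carrier, fell by 3.54 (SE 0.50, edgeR adjusted p = 1.36e-06) in engrafted cells and by 2.05 (SE 0.20, adjusted p = 3.05e-08) in host microglia. Its engrafted LPS libraries held only 1 to 5 reads (1.10 to 14.6 CPM), so the size of that fall is uncertain. It entered the test of engrafted cells only through its control libraries.

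Genes for the removal of free haemoglobin were followed as part of haem handling. With LPS, Hp, haptoglobin, which binds free haemoglobin, went from a mean of 20.1 to 2191 CPM in engrafted cells (log2 change 6.82, SE 0.42, edgeR adjusted p = 4.78e-10). In host microglia it went from 6.12 to 17.5 CPM (1.46, SE 0.51, adjusted p = 0.0201), a call lost without any of 3 single host libraries. The interaction was 5.35 (SE 0.75, edgeR adjusted p = 0.000132). Cd163, the receptor for haptoglobin-bound haemoglobin, rose from 11.0 to 43.0 CPM in engrafted cells (2.04, SE 0.38, edgeR adjusted p = 0.000134) and had at most 3 reads in any host library. In engrafted cells Cd163 and Hp cleared the low-count limits only through their LPS libraries. Engrafted control libraries held 4 to 10 reads of Cd163 and 8 to 16 of Hp. Hp and Lcn2 are also neutrophil genes, and neutrophil markers were higher in engrafted libraries. In engrafted cells those markers summed to 200.2 to 1242 CPM without and 47.0 to 487 CPM with LPS, but 1 of the 6, Mmp8, had a mean of 0.253 CPM without and 26.7 CPM with LPS. Their part in the levels of Hp and Lcn2 was not tested.

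The zinc and iron importer Slc39a8 and the iron-sensing ubiquitin ligase subunit Fbxl5, which marks Ireb2 protein for decay, also passed the interaction, at -2.04 (SE 0.53, edgeR adjusted p = 0.0148) and 1.15 (SE 0.31, adjusted p = 0.0249). Either call was lost when certain single libraries were left out, with adjusted p of up to 0.0552 for Slc39a8 and 0.0771 for Fbxl5. Fbxl5 rose in engrafted cells from 47.1 to 71.6 CPM (log2 change 0.61, edgeR adjusted p = 0.0389) and fell in host microglia from 38.1 to 26.2 CPM (-0.56, adjusted p = 0.047). Of the 7 sensors and regulators tested in engrafted cells, Fbxl5 was the 1 that rose, and Nfe2l2, the activator of Hmox1 and ferritin genes, was the 1 that fell, by 1.14 (SE 0.19, edgeR adjusted p = 9.06e-05). Mitochondrial iron genes passed in 2 of 7 tested in engrafted cells (28.6%, beside 38.7% of all genes), both higher, and in 4 of 8 in host microglia (50.0%, beside 39.7%), 3 of them higher.

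**Figure D4:**
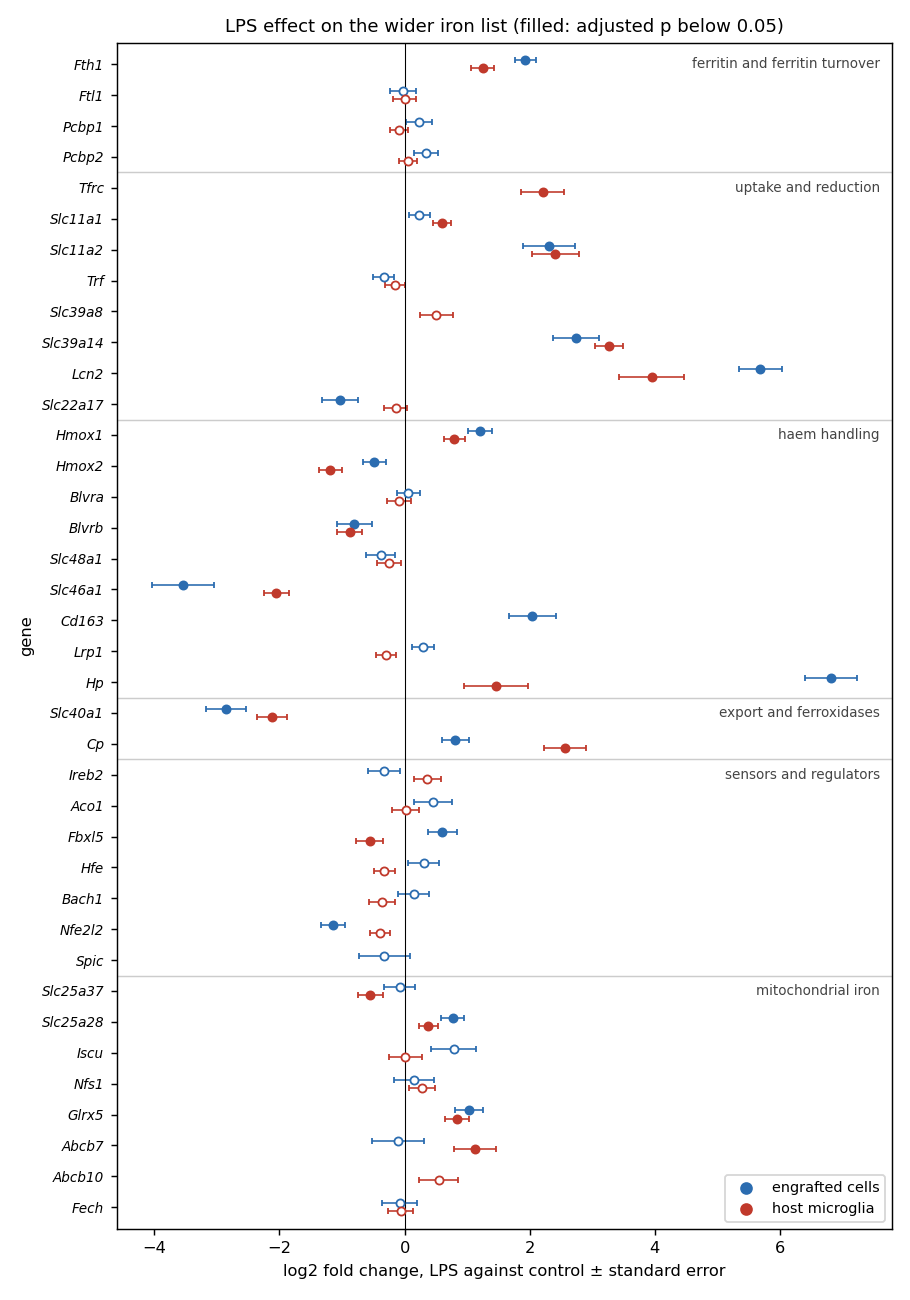
Fitted log2 fold change for LPS against control (x axis) of every gene of the wider iron list that was tested (y axis, grouped by role), with standard errors, in engrafted cells (blue) and host microglia (red). Filled points had an adjusted p below 0.05; Hp and Lcn2 lie farthest right at 6.82 and 5.69 in engrafted cells and Slc46a1 farthest left at -3.54, where its LPS libraries held 1 to 5 reads.

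Between populations without LPS, 4 of the 25 tested genes of the wider list beyond the 9 were higher in engrafted cells and 4 were lower (32.0%, beside 27.3% of all genes tested), and after LPS 6 were higher and 4 lower of 28 (35.7%, beside 17.1%). Lcn2 was higher in engrafted cells by 2.59 (SE 0.52, edgeR adjusted p = 0.000147) on the log2 scale without LPS and Blvrb, biliverdin reductase B, by 1.15 (SE 0.16, adjusted p = 5.01e-06). Host microglia had more Slc22a17, a receptor for lipocalin 2 (-1.57, SE 0.15, edgeR adjusted p = 5.92e-09), and more Slc46a1 (-1.40, SE 0.16, adjusted p = 1.30e-07). After LPS, Hp (6.99), Lcn2 (4.37) and Fbxl5 (1.43) were higher in engrafted cells by the log2 differences given, as was Cd163, with 43.0 CPM in engrafted and 1.33 CPM in host libraries, the latter from 4 reads over 4 libraries. Slc46a1 (-2.90), Slc22a17 (-2.47), Slc39a8 (-1.94) and Slc39a14 (-1.31) were higher in host microglia. Engrafted LPS libraries held only 1 to 5 reads of Slc46a1 and 3 to 7 of Slc39a8.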

How the data were processed

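Libraries came from 10000 sorted cells each and were prepared by a derivation of MARS-seq, which reads polyadenylated messages at their 3′ end. The authors mapped reads to mm9 with HISAT (0.1.5 in the submitters' processing notes), kept unique matches and counted them with HOMER on the sense strand over exons of 1 RefSeq model a gene. The deposited values are these raw counts, not normalized. No step that removes PCR duplicates is named in the sources used here. Gene identifiers and coordinates are those of the table (mm9, counted from 1).

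Groups of 4 libraries were taken from the labels. The counts were analysed with edgeR 4.0.16 (R 4.3.3). Genes below its low-count limits (minimum count 10, minimum total 15) were left out, library sizes were corrected with TMM, and p-values of quasi-likelihood tests were adjusted by Benjamini-Hochberg over all genes tested, with a threshold of 0.05. Fold changes carry a prior count of 0.125, and standard errors are Wald errors of the fit. Only the groups compared entered a fit, except for the interaction, fitted on all 16 libraries, whose sign is the LPS effect in engrafted cells minus that in host microglia. Where Tfrc failed the filter, mean log2(CPM + 1) was permuted exactly between groups (two-sided, smallest possible p 0.029 with 4 against 4). Genes beyond the 9 were named when they were among the 4 of a direction with the largest log2 fold change above 1 in size and an adjusted p below 0.05. Members and lists were chosen with earlier results of these data known. Replicate pairs differed by 2.07 to 10.1 times counting noise (24 pairs), so no library was a copy of another. Libraries of a mouse come from 1 animal, and after removal of group means their Pearson r was -0.03 to 0.19. Alternatives were RLE size factors, library totals, DESeq2 1.42.0, no filter on low counts, all 16 libraries in 1 fit, the mouse as a replicate block, each library left out in turn and, chosen after seeing the data, without mice 4 and 8. The tests were tried on simulated data.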

Additional observations from a re-analysis of the deposited data

Results flagged for a closer look

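Within groups of 4, 5 of 40 sets of values had 1 library far from the other 3 by Dixon's criterion, which chance alone meets in about 1 of 20 sets. Mouse 5 gave 3 of them among engrafted control cells: Ftl1 was lowest there at 2450.1 CPM, Hmox1 highest at 223 CPM and the ratio of Fth1 to Ftl1 highest at 2.00. The ratio is computed from that Ftl1 value, so its flag repeats the one of Ftl1, and the 40 sets are not independent. Hmox1 was highest among host control libraries in mouse 8, at 114 CPM, and Fth1 lowest among engrafted LPS libraries in mouse 3, at 15107 CPM.

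The effect of LPS differed between engrafted cells and host microglia, by edgeR's interaction test with adjustment over all genes, for Cp (-1.75 on the log2 scale, adjusted p = 0.00919) and, in the wider list, for Slc39a8 (-2.04, adjusted p = 0.0148), Hp (5.35, adjusted p = 0.000132) and Fbxl5 (1.15, adjusted p = 0.0249).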

How the results depend on the processing

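Of 691 values of the 9 genes under the alternatives run, 649 kept their direction and side of the threshold, 4 lost the call, 9 gained it and 29 changed sign, all of the latter for differences that passed no test. The cause of these changes was not tested. Between populations without LPS, leaving out 1 library gave 3 to 4 genes higher and 0 to 1 lower, and Fth1 also lost its call with all 16 libraries in the edgeR fit (0.35, adjusted p = 0.192). After LPS the number lower was 3 with library totals and with all 16 libraries, where Slc40a1 and Slc11a1 joined Tfrc, 2 with no filter, and 0 to 1 when 1 library was left out. For the interaction the number higher was 1 with no filter and 1 with the mouse as a replicate block, in both cases Fth1 (0.70, adjusted p = 0.0469, and 0.72, adjusted p = 0.0341), and 0 to 1 when 1 library was left out. The block changed no other call. Scaling by library totals moved the median of all genes by -0.15 (log2) between populations after LPS and by at most 0.08 in size elsewhere, and no gene of the 9 changed direction with it.

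Signs turned for Slc11a1 between populations without LPS (0.084 without mice 4 and 8, -0.12 to 0.061 with 1 library left out), for Ftl1 under LPS in engrafted cells (0.0056 with DESeq2, 0.012 with no filter, -0.20 to 0.10) and in host microglia (-0.11 to 0.21), and for the interaction of Ftl1 (-0.25 to 0.10) and of Slc11a2 (-0.35 to 0.31). In the wider list, Hp in host microglia lost its call with DESeq2 (adjusted p = 0.0536) and without any of 3 single libraries, Fbxl5 lost its interaction without mice 4 and 8 (1.07, adjusted p = 0.0845) and Slc39a8 without the engrafted library of mouse 1 (-1.78, adjusted p = 0.0552). More genes entered the test with DESeq2 and with no filter, and smaller shares of them passed: between populations without LPS 15.0 and 17.7%, for LPS in engrafted cells 18.4 and 23.8% and in host microglia 19.2 and 24.7%, between populations after LPS 10.1% with DESeq2, and for the interaction 3.88% with no filter. With 4 libraries a group and 17 to 32 reads at its highest, Tfrc is limited by depth.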

Other observations

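Genes whose level followed a member most closely over the 16 libraries were sought among the 3793 others that averaged 50 CPM or more (Pearson's r of log2(CPM + 1), a description in which the points share libraries, mice and groups). Fth1 was followed most closely by the acute-phase gene Saa3 (r = 0.977), Rilpl2 (0.977) and Tspo (0.973), the mitochondrial outer membrane protein used as a marker of reactive microglia. Hmox1 went with Irf7 (0.958), Cxcl2 (0.958) and Cd44 (0.952), and Slc11a2 with Pik3r6 (0.968), Nfkbia (0.949) and Pik3r5 (0.946). Slc40a1 went with Hook3 (0.973), Col27a1 (0.967) and Kif21b (0.965), and Cp with Ifi207 (0.964), Grk6 (0.961) and Zmynd15 (0.957). The highest r was lower for Slc11a1 (0.921, Ftsj3), for Ftl1 (0.894 with Cox8a, then 0.838 with the apolipoprotein gene Apoe), for Tfrc (0.858, Wapl) and for Ireb2 (0.798, Mtf2). The 2 ferritin chains thus had different nearest genes.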
